A study of Mus musculus with 80 samples.

Results

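Livers of Adamts12-/- mice (KO) were compared with livers of wild-type mice (WT) 4 h after a single injection of carbon tetrachloride (CCl4). The 10 livers, 5 KO and 5 WT, were chosen by the genotype, treatment and time in their titles, out of 80 livers in 16 groups of 5. All mice were C57BL/6J females of 8 weeks, and CCl4 was given into the peritoneum at 0.3 ml per kg, diluted to 3% by volume in olive oil. The 5 KO and 5 WT livers taken 4 h after olive oil alone (vehicle) gave the genotype difference without the toxin, and livers of 12 h, 24 h and 7 days were used as further conditions. KO mice carry the loss of Adamts12 in every cell from birth. Which part of the gene was removed, and whether the WT mice were littermates, is not given in the sources used here. The mice are numbered one by one in the labels and no pairing between groups is given.

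ADAMTS12 is a secreted metalloproteinase with thrombospondin motifs, one of a family that cuts proteoglycans and other proteins of the extracellular matrix. CCl4 is turned into a reactive radical by cytochrome P450 enzymes, above all CYP2E1, in the hepatocytes around the central vein. These cells respond within hours with heat shock, integrated stress and p53 target genes, before they die and before immune cells arrive and neighbouring hepatocytes divide. Matrix deposition and its remodelling by secreted proteases belong to the later days.

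Values are normalized read counts per gene, and differences are KO minus WT on the scale of log2(value + 1), with the standard error of a model fitted to the 20 livers of 4 h. A gene was called at an adjusted p under 0.05 (limma, Benjamini-Hochberg over 14094 genes). The libraries held 23.27 to 55.79 M reads in KO livers after CCl4 and 23.61 to 51.37 M in WT livers after CCl4. The hepatocyte markers showed the tissue: their summed level was 5231784 to 5568110 in KO livers and 4718275 to 6572712 in WT livers after CCl4, with 0 of 16 markers called. Every KO library of 4 h was closer to its labelled treatment than to the other. Among KO libraries of the later times 5 were closer to the other treatment, 1 each in CCl4 at 12 h, vehicle at 12 h and CCl4 at 24 h, and 2 in vehicle at 7 days. Only those of 12 h were clearly so. KO CCl4 replicate 5 of 12 h was 3.426 from the WT CCl4 mean and 0.589 from the WT vehicle mean (log2). For KO vehicle replicate 1 of 12 h these distances were 0.63 and 3.366. The others were nearly as far from both means, at 2.04 and 1.723 at 24 h, and 1.132 and 1.211, and 1.004 and 1.121, at 7 days. The WT livers of 4 h stood apart from the WT livers of the later times in genes described below, Ctse, Gm16867, Gm15772 and Mcm6, and all 5 WT livers after CCl4 did so.

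The targeted gene was low in both genotypes. Adamts12 (chromosome 15, 11064790 to 11349231, GRCm38) had 6.4, 13.5, 10.9, 3.2 and 7.5 normalized counts in KO livers after CCl4, against 15.9, 26.9, 28, 45.2 and 9.6 in WT livers. The ranges overlapped, since the lowest WT liver lay below 2 KO livers. The difference was -1.44 ± 0.49 on the log2 scale, with an adjusted p of 0.209 in limma and p = 0.0238 in an exact two-sided permutation test of the 5 and 5 values, where 0.00794 is the smallest p possible. In vehicle livers of 4 h the mean was 4.1 ± 3.2 in KO and 15.5 ± 8.0 in WT (SD, n = 5 each), with exact permutation p = 0.0238. None of the 35 genes tested within 5 Mb of Adamts12 was called after CCl4, against 0.613% of genes on other chromosomes. In vehicle livers of 4 h 1 of these 35 was called, against 1% of all genes. With 35 genes these counts are too small to show whether genes near Adamts12 differed more or less often than others.

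After CCl4, 85 of 14094 genes were called between the genotypes, 0.603% of those tested. In KO livers 31 were higher (0.22%) and 54 lower (0.383%). The median size of their differences was 1.08 on the log2 scale, 46 differed by more than 2-fold, and 70 of the 85 had no overlap between the 5 KO and 5 WT livers, which 3.37% of all genes showed. At an unadjusted p under 0.05 there were 1805 genes (12.8%). The count depended on single livers: it was 44 without KO replicate 2, 46 without KO replicate 3, 55 without KO replicate 4, 44 without KO replicate 5, 33 without WT replicate 1, 39 without WT replicate 3 and 51 without WT replicate 4, and 65 to 110 without any of the others. Of the 85 genes, 25 were called in all 10 of these fits. Genes called in fewer are given below with the number of fits that called them.

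In vehicle livers of 4 h, which are different animals, 141 genes were called between the genotypes (1%), 33 higher in KO (0.234%) and 108 lower (0.766%), with 1813 at an unadjusted p under 0.05 (12.9%). The vehicle count was 25 without KO replicate 4, 50 without WT replicate 1, 42 without WT replicate 2 and 91 without WT replicate 4. Of the 85 genes called after CCl4, 21 were also called in vehicle, which is 24.7% of the first list and 14.9% of the second, and 0 of these had the opposite sign. The sign was the same in vehicle for 80 of 85 (94.1%), against 57.7% of all genes. Livers that had received no toxin thus carried the sign of most of these differences.

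**Figure D1:**
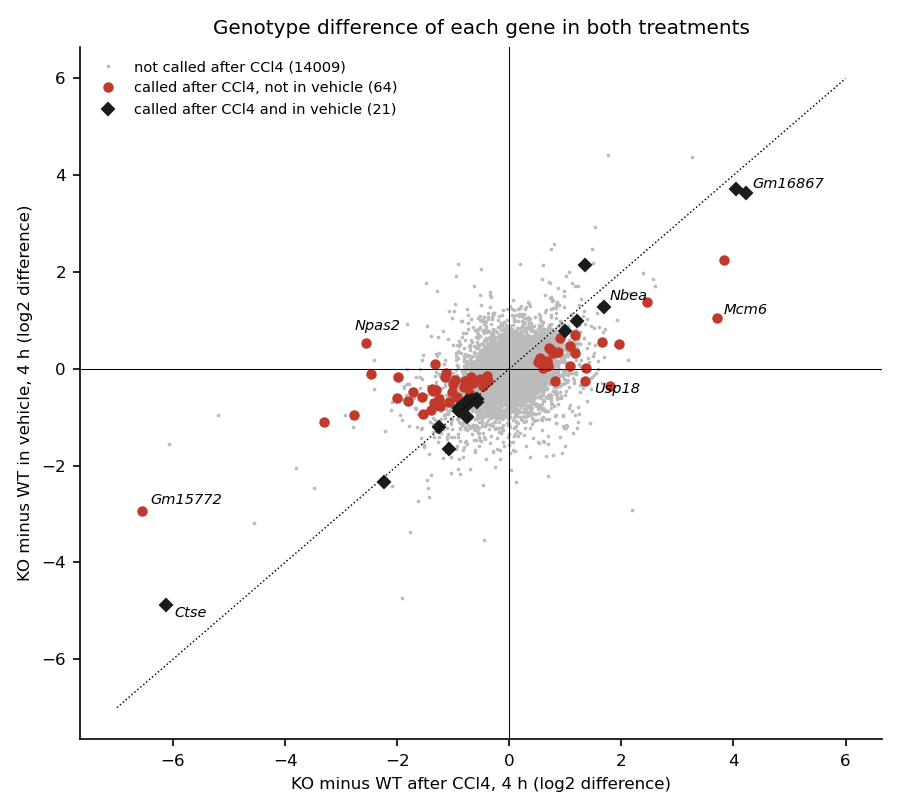
Genotype difference (KO minus WT, log2) after CCl4 on the x axis and in vehicle on the y axis, for 14094 genes at 4 h; each point is a gene, and the dotted line marks equal differences. Gm16867 and Ctse lie near the line, whereas Mcm6 and Gm15772 had larger differences after CCl4 than in vehicle.

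Both genotypes answered CCl4 with largely the same genes. CCl4 changed 6429 genes in KO livers (45.6%) and 7013 in WT livers (49.8%) against vehicle. Both lists held 5337 genes, 83.0% of the KO list and 76.1% of the WT list, of which 5330 changed in the same direction and 7 in opposite directions. The inducible heat shock protein gene Hspa1a was 7.48 higher on the log2 scale after CCl4 in KO and 8.05 higher in WT livers, the stress transcription factor gene Atf3 6.70 and 6.94 higher, and the cell cycle inhibitor gene Cdkn1a, a p53 target, 5.97 and 6.12 higher. A different response between the genotypes was tested as an interaction, which called 2 genes (0.0142%), Mcm6 and Il1b, with 1023 genes at an unadjusted p under 0.05 (7.26%).

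Mcm6 had the smallest p of all genes. It encodes a subunit of the MCM helicase, which is loaded on replication origins in G1 and unwinds DNA in S phase. After CCl4, Mcm6 had 446, 727, 550, 511 and 541 normalized counts in KO livers and 38.5, 60.8, 21.8, 58.8 and 38.5 in WT livers. Every KO liver lay far above every WT liver. The difference was 3.71 ± 0.30 (log2; limma adjusted p = 5.14e-07) and was called in all 10 fits that left out a CCl4 liver.

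In vehicle livers of 4 h Mcm6 stood at 106 to 164 in KO, against 37.6, 64.5, 62.2, 53 and 154 in WT, a difference of 1.04 that was not called (adjusted p = 0.1). Mcm6 was 2.00 higher on the log2 scale after CCl4 than in vehicle in KO livers (adjusted p = 1.25e-05). In WT livers the CCl4 difference was -0.67 (adjusted p = 0.0665). The interaction was 2.67 (adjusted p = 0.0196). It was lost in 8 of the 20 fits that left out a liver of 4 h (WT replicate 1 or 5 or KO replicate 2, 3 or 5 after CCl4, KO replicate 2, 3 or 5 in vehicle), with an adjusted p up to 0.0661.

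Of 30 DNA replication genes tested, Mcm6 was the 1 called, and the list's median was 0.13, against -0.009 over all genes. On this list 19 of 30 had a positive difference (48.5% of all genes did). Cdc45, which joins MCM in the active helicase, differed by 0.61 (adjusted p = 0.162), and Gins2, another helicase partner, by 0.78 (adjusted p = 0.356). Both were uncalled members chosen after their values were seen. Dna2, a nuclease and helicase of replication that is not on the list and was chosen after its values were seen, was lower in KO livers (-0.68, adjusted p = 0.0277, called in 4 of 10 fits).

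Across the series the WT livers of 4 h were the ones that stood apart for Mcm6. KO livers ranged from 106 to 727 at 4 h and from 114 to 1207 at other times. Mcm6 was under 70 in 9 of 10 WT livers of 4 h and in 0 of 30 WT livers of the other times, which ranged from 83.4 to 665.

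Ctse, which encodes the aspartic protease cathepsin E, showed the mirror image. It had 6.45, 5.99, 13.6, 5.70 and 6.29 normalized counts in KO livers after CCl4, against 700, 476, 454, 943 and 431 in WT livers. The groups were apart by over an order of magnitude, with a difference of -6.13 ± 0.78 (log2; limma adjusted p = 0.000511). In vehicle livers KO stood at 7.06 to 16, against 1266, 779, 706, 302 and 12.0 in WT (difference -4.87, adjusted p = 0.00613). Here WT replicate 5 was as low as the KO livers.

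The high level of Ctse was itself a property of the WT livers of 4 h. It was at least 100 in 0 of 40 KO livers, in 9 of 10 WT livers of 4 h and in 5 of 30 WT livers of the other times, so that the low level of KO livers was the usual level of the series. Gm16867, a gene on chromosome 14 chosen here after its values were seen, followed the same livers of 4 h in the other direction. It had 9.02, 40.4, 17.7, 11.4 and 22.0 normalized counts in KO livers after CCl4 and was at 0 in all 5 WT livers. The fitted difference was 4.22 (adjusted p = 0.00188), which depends on the pseudocount. Gm16867 was at 0 in 0 of 40 KO livers, in 9 of 10 WT livers of 4 h and in 3 of 30 other WT livers.

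Both marks fell on the same animals. Of 12 WT livers with Gm16867 at 0, 11 had Ctse at 100 or more, and of the 28 WT livers with reads of Gm16867, 3 did. At later times the marks met in WT vehicle replicate 2 of 12 h and WT CCl4 replicate 5 of 7 days. WT CCl4 replicate 2 of 24 h had Gm16867 at 0 but Ctse at 11.5. WT CCl4 replicate 1 and vehicle replicate 5 of 12 h, and CCl4 replicate 4 of 24 h, had high Ctse with reads of Gm16867. WT vehicle replicate 5, the 1 WT liver of 4 h without these marks, also had the highest Mcm6 of its group (154). The labels give all WT mice the same strain, and what sets these animals apart was not tested. Because all 5 WT livers after CCl4 carried the marks, they cannot be told apart from the genotype in the CCl4 comparison.

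**Figure D2:**
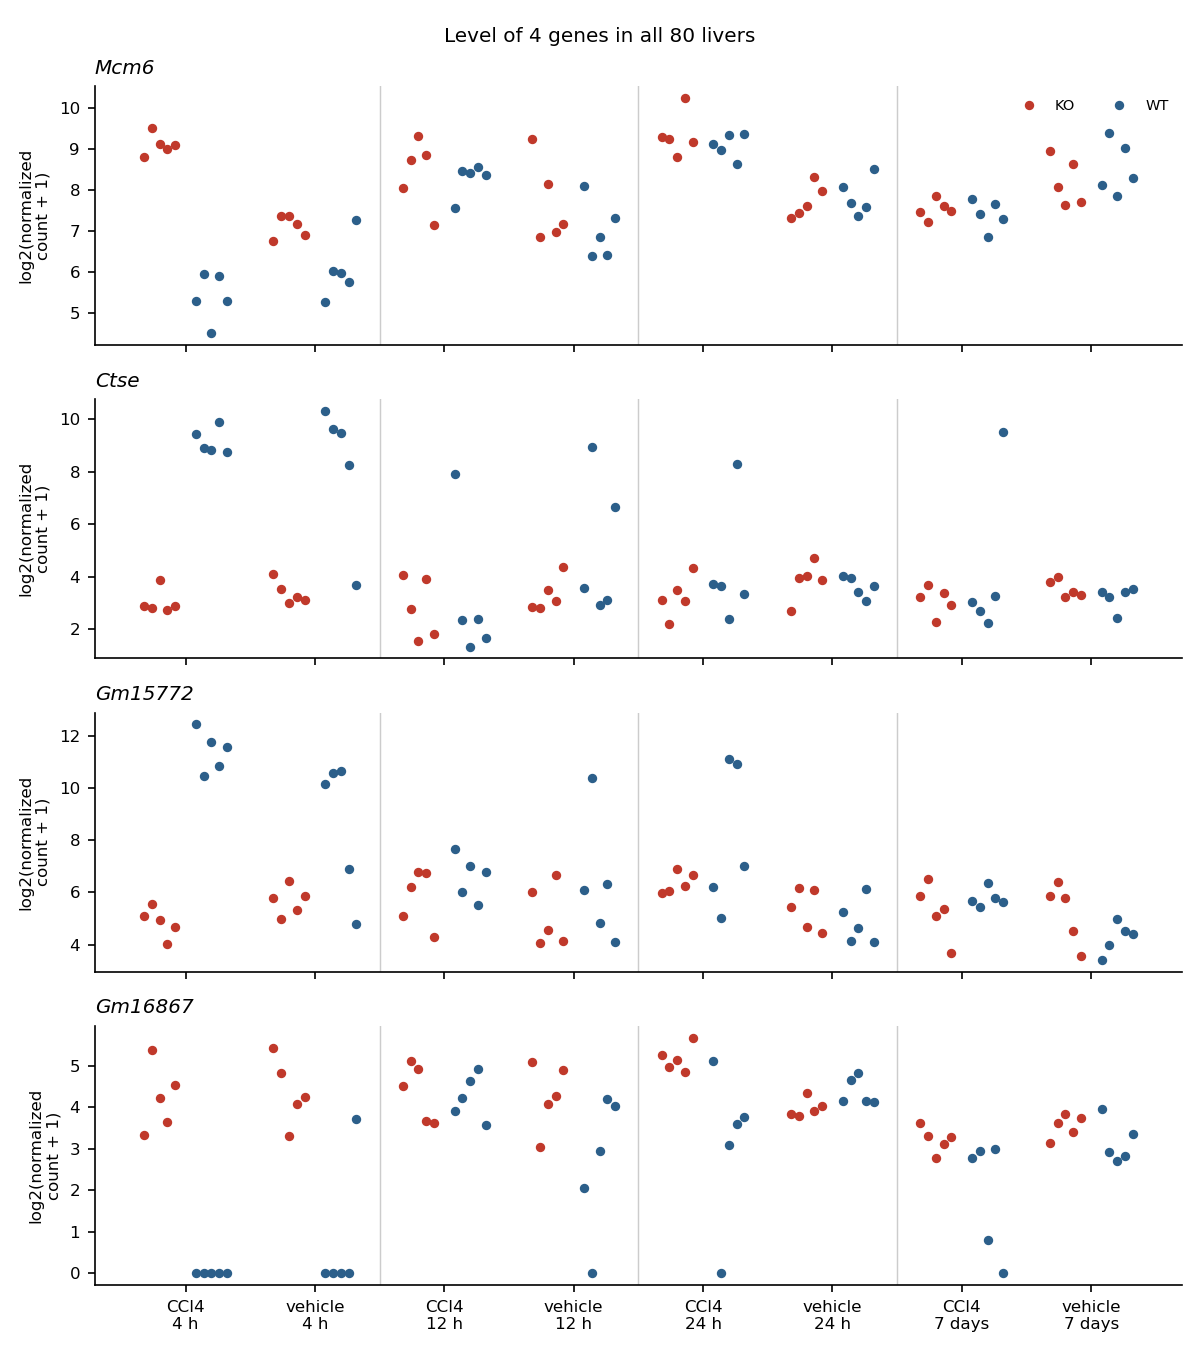
Levels of Mcm6, Ctse, Gm15772 and Gm16867 as log2(normalized count + 1) on the y axis, in KO and WT livers of each treatment and time on the x axis; each point is a liver. The WT livers of 4 h stand apart from the WT livers of later times, with 9 of 10 at a Gm16867 of 0 and 9 of 10 at a Ctse of 100 or more.

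Rpl26 and Gm15772 differed in opposite directions. Rpl26 (chromosome 11, 68901583 to 68906989) encodes a protein of the large ribosomal subunit, and Gm15772 (chromosome 5, 3236431 to 3236868) is annotated as a processed pseudogene, a copy of an mRNA inserted into the genome. In the GENCODE M21 sequences 436 of 438 coding bases were identical between them (99.5%), with a longest identical run of 176 bases. The 2 substitutions, counted from the start of the Rpl26 coding sequence with the Rpl26 base first, are C177T and T288C. They are shown in capitals because a read that lies within these 438 bases can be assigned to the right copy only where it covers one of them. Sequence outside this stretch was not compared.
Rpl26, around C177T: gttcaggttgttcgCggacactacaaagg
Gm15772, around C177T: gttcaggttgttcgTggacactacaaagg
Rpl26, around T288C: ggcacaaccgtccaTgtgggcatccaccc
Gm15772, around T288C: ggcacaaccgtccaCgtgggcatccaccc

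Gm15772 had 33.5, 46.4, 29.9, 15.2 and 24.5 normalized counts in KO livers after CCl4, against 5547, 1398, 3513, 1850 and 3030 in WT livers. Rpl26 had 5111, 5136, 4415, 5097 and 4741 in KO livers, against 1409, 2589, 1067, 3342 and 684 in WT livers. The 3 WT livers with the most Gm15772, replicates 1, 3 and 5, were also the 3 with the least Rpl26. Every WT liver was above every KO liver for Gm15772 and below every KO liver for Rpl26. The differences were -6.55 ± 0.80 for Gm15772 (adjusted p = 0.000417) and 1.66 ± 0.33 for Rpl26 (adjusted p = 0.0206, called in 7 of 10 fits without a liver and lost without WT replicate 1, WT replicate 3 or KO replicate 2).

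The sum of both did not separate the groups. It was 4930 ± 319 in KO livers and 4885.6 ± 1290.2 in WT livers after CCl4 (SD, n = 5 each), a log2 difference of 0.05 with exact permutation p = 0.825. The ribosomal protein genes as a list had 0 of 68 members called, Rpl26 not being on it, and a median of -0.129. How reads that match both copies were counted is not given in the sources used here, so the opposite differences of this pair are uncertain as expression changes. Gm10036, another processed pseudogene, chosen after its values were seen, was at 100 or more in 8 of 10 KO livers of 4 h, in 12 of 30 other KO livers and in 0 of 40 WT livers.

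**Figure D3:**
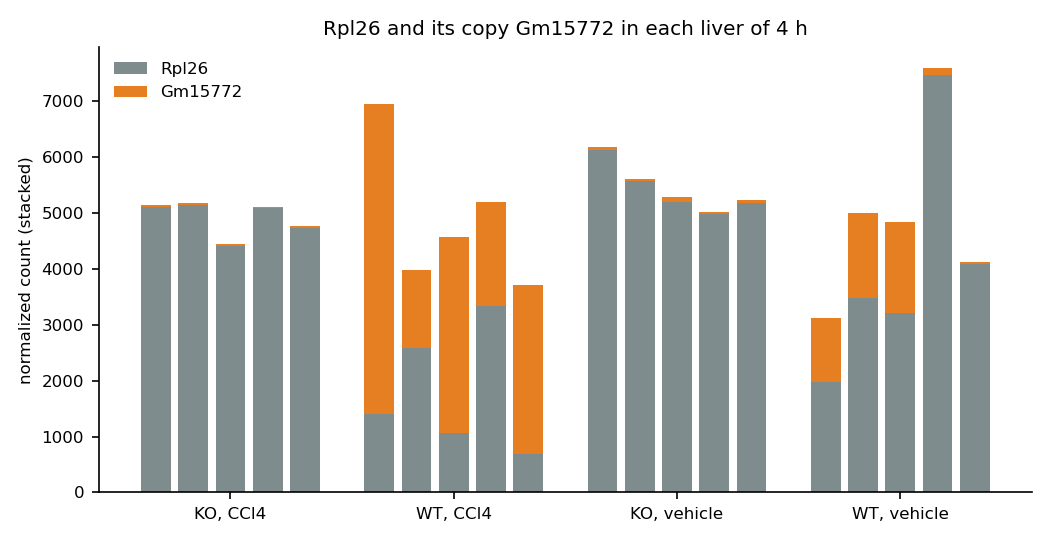
Normalized counts of Rpl26 and of its copy Gm15772, stacked, on the y axis for each of the 20 livers of 4 h on the x axis; each bar is a liver. The summed height was 4930 on average in KO and 4885.6 in WT livers after CCl4, while Gm15772 made up most of it in several WT livers and almost none in KO livers.

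The interferon-responsive genes Irf7 and Usp18 were higher in KO livers after CCl4. Interferons act through receptors and STAT proteins on an interferon-stimulated response element (ISRE) in promoters of antiviral genes. IRF7 is the transcription factor that amplifies type I interferon production, and USP18 removes the ubiquitin-like ISG15 from proteins and dampens the interferon receptor. Irf7 had 2266, 2532, 4573, 1793 and 1925 normalized counts in KO livers, against 975, 1102, 1007, 1017 and 1369 in WT livers. Usp18 had 1102, 1230, 2002, 1878 and 1386 in KO livers, against 591, 610, 655, 300 and 893 in WT livers. For both genes every KO liver was above every WT liver, with the highest Irf7 in KO replicate 3.

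The differences were 1.18 ± 0.20 for Irf7 (adjusted p = 0.00561) and 1.36 ± 0.24 for Usp18 (adjusted p = 0.0114), and both were called in all 10 fits without a CCl4 liver. In vehicle livers neither was called, with 0.33 for Irf7 (adjusted p = 0.503) and -0.25 for Usp18 (adjusted p = 0.723). Usp18 was 2.11 higher after CCl4 than in vehicle in KO livers (adjusted p = 4.79e-07), against 0.50 in WT livers (adjusted p = 0.0929). The interaction for Usp18, 1.61, was not called (adjusted p = 0.271).

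Of 36 interferon-stimulated genes tested, these 2 were called (0.603% of all genes were), 33 had a positive difference (48.5% of all genes did) and 16 had an unadjusted p under 0.05 (12.8% of all genes). The list's median was 0.471 after CCl4 and -0.022 in vehicle, against -0.009 and 0.005 over all genes. The summed level of the list was 30716 to 66329 in KO livers and 26386 to 36760 in WT livers after CCl4, which overlap. Among members that were not called and were chosen after their values were seen, the antiviral RNA sensors Oas1a and Oas3 differed by 0.95 (adjusted p = 0.0677) and 1.21 (adjusted p = 0.108). The immunoproteasome subunit gene Psmb9 differed by 0.60 (adjusted p = 0.18), and Xaf1, an apoptosis regulator, by -0.56 (adjusted p = 0.408). The class I histocompatibility genes H2-Q7 (0.91) and H2-Q6 (0.78) were called in 4 and 2 of the 10 fits. They are near-identical paralogs, so their counts are uncertain.

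The promoters of the list often carried the letters of an ISRE. The motif GAAANNGAAA, searched on both strands from 250 bases before to 50 after each start, was in 16 of the 27 list members found in the RefSeq promoter table of GRCm38.p6 and in 3.99% of all 27025 genes there. Irf7 had no match in its window, which says only that these letters are not there. The stretches below show the match in 3 members, Oas1a and Oas3 as uncalled members with large differences and Isg15 as a classical interferon target. Matching bases are in capitals, and a run longer than the motif holds overlapping matches.
Oas1a, chr5:120907522-120907551, minus strand: tctcggGAAATGGAAACTGAAAatctactt
Oas3, chr5:120777711-120777740, minus strand: ggaggaGAAAACGAAAgtgaagggaggtga
Isg15, chr4:156200873-156200902, minus strand: ccgtagGAAAAGGAAACCGAAACAGAAAat

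**Figure D4:**
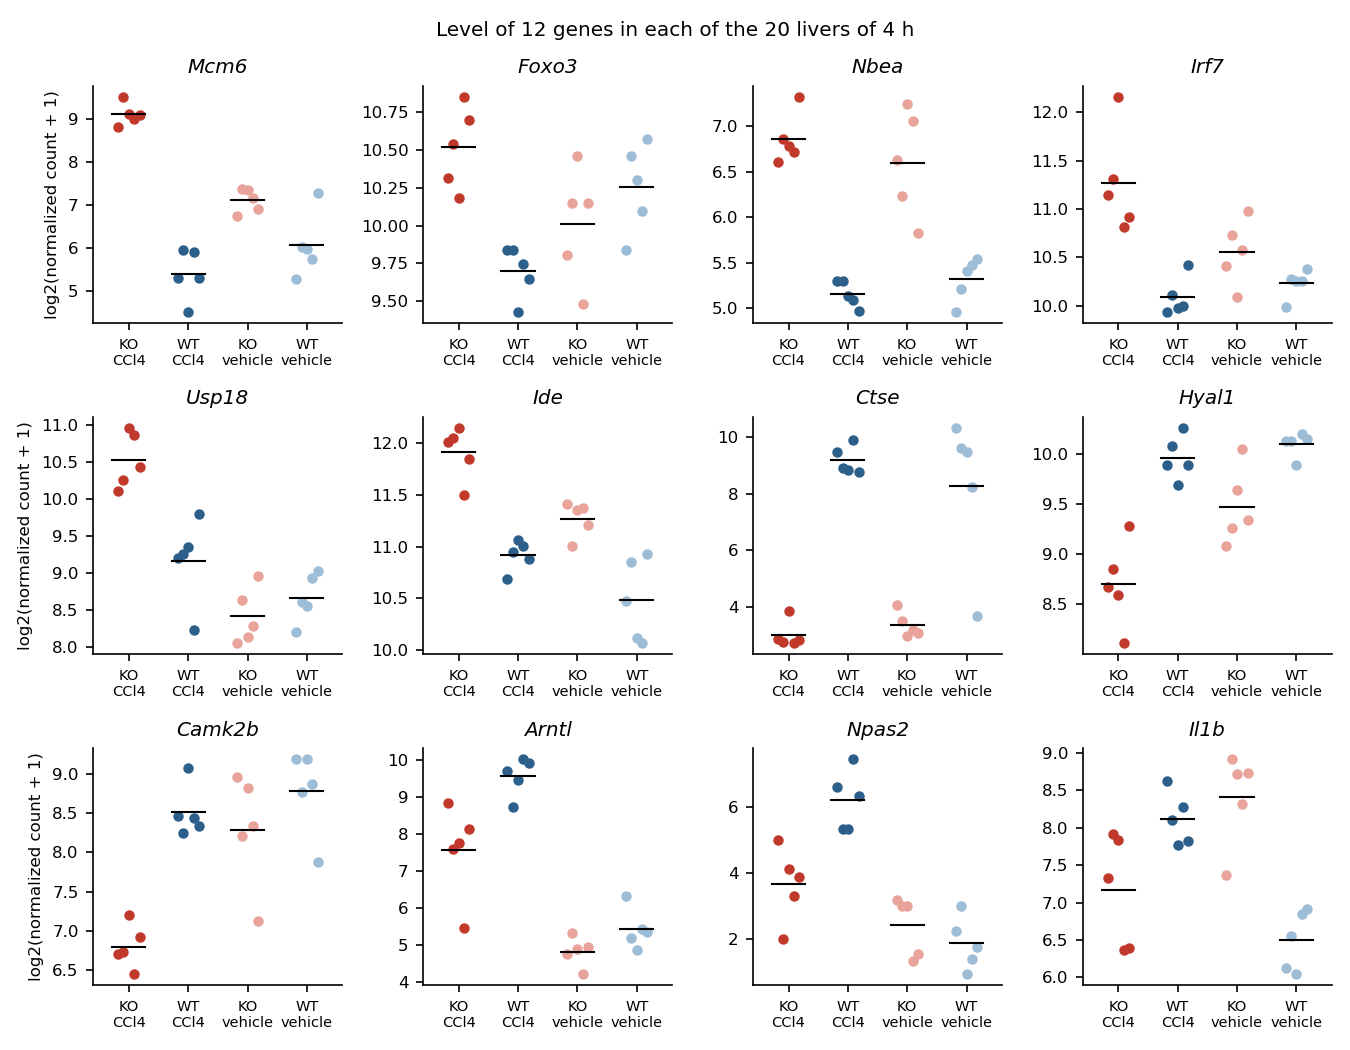
Levels of 12 genes as log2(normalized count + 1) on the y axis in KO and WT livers of 4 h after CCl4 and in vehicle on the x axis; each point is a liver and each line the mean of 5. Of the 11 genes called after CCl4, 10 show no overlap between KO and WT livers after CCl4 and Arntl overlaps; Il1b, not called after CCl4, is higher in KO only in vehicle.

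Arntl and Npas2, of the activating arm of the circadian clock, were lower in KO livers after CCl4. ARNTL (BMAL1) pairs with CLOCK or its relative NPAS2 to switch on Per, Cry and Dbp genes, whose products close the loop by repression. Arntl had 455, 190, 216, 43.1 and 279 normalized counts in KO livers and 836, 418, 694, 1043 and 965 in WT livers, with KO replicate 1 above WT replicate 2. Npas2 had 30.9, 2.99, 16.3, 8.87 and 13.8 in KO livers and 97.0, 39, 39.4, 176 and 79.8 in WT livers, without overlap. The differences were -2.01 ± 0.43 for Arntl (adjusted p = 0.0331) and -2.56 ± 0.56 for Npas2 (adjusted p = 0.0337).

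Compared with vehicle, Arntl was 2.74 higher after CCl4 in KO livers (adjusted p = 2.7e-05) and Npas2 differed by 1.25 (adjusted p = 0.0731). In WT livers both were higher after CCl4, by 4.14 for Arntl (adjusted p = 9.94e-08) and 4.35 for Npas2 (adjusted p = 1.57e-06). The interactions were not called, at -1.40 for Arntl (adjusted p = 0.682) and -3.10 for Npas2 (adjusted p = 0.558).

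Of 20 clock genes tested these 2 were called, both lower, against 0.603% of all genes called, while 14 of 20 had a positive difference (48.5% of all genes) and the median was 0.379 (-0.088 in vehicle), so the median and the calls differ in sign. An unadjusted p under 0.05 was found for 15 of the 20, against 12.8% of all genes. Other members of the activating arm were also at negative values, Clock at -0.70 (adjusted p = 0.0584) and Rora, a receptor that drives Arntl, at -0.55 (adjusted p = 0.131). Targets of the arm were at positive values, Dbp at 1.82 (adjusted p = 0.0755), Per3 at 1.05 (adjusted p = 0.276), Usp2 at 0.96 (adjusted p = 0.222), Per2 at 0.86 (adjusted p = 0.17) and Tef at 0.73 (adjusted p = 0.156), whereas Cry1 was at -0.87 (adjusted p = 0.158). These uncalled members were chosen after their values were seen.

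Dbp, a transcription factor gene that follows the clock with a large daily swing, had 180, 477, 403, 1309 and 461 in KO livers and 110, 207, 130, 63.3 and 201 in WT livers after CCl4. In KO replicate 4 the highest Dbp met the lowest Arntl, and in WT replicate 4 the lowest Dbp met the highest Arntl. Arntl was called in 4 of the 10 fits without a liver and Npas2 in 3. Both were lost without WT replicate 1, 4 or 5 or KO replicate 2 or 3, Arntl also without WT replicate 3, and Npas2 also without KO replicate 4 or 5. The hour of the day at which each liver was taken is not given in the sources used here, and its part in these values was not tested.

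Of the 2 promoter windows of Arntl in the table, 1 held a match to the ROR element TAGGTCA, through which ROR receptors activate and REV-ERB receptors repress. The match lies 31 bases after the start of that window's transcript and is in capitals below. The other Arntl window and the window of Npas2 had no match. The element was in 2 of the 17 clock genes found in the table, against 2.97% of all genes there. The E-box CACGTG was in 5 of 17 (8.09% of all genes) and the D-box TTATGTAA in 1 of 17 (1.11%), both strands searched.
Arntl, chr7:113207535-113207560, plus strand: agaaagTAGGTCAgggacggaggtgc

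Several called genes act in signalling. Hes1, a transcriptional repressor switched on by Notch, had 171, 238, 189, 152 and 217 in KO livers and 488, 346, 390, 661 and 326 in WT livers (-1.16 ± 0.24, adjusted p = 0.0297, called in 3 of 10 fits). The vehicle values of Hes1 were 99.6 to 302 in KO and 216 to 282 in WT.

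Camk2b, a subunit of calcium/calmodulin-dependent kinase II, was lower in KO livers (-1.71 ± 0.29, adjusted p = 0.00561), with 103, 105, 146, 86.1 and 120 in KO and 351, 303, 537, 347 and 323 in WT. The forkhead factor gene Foxo3, which insulin signalling holds inactive, was higher by 0.82 (adjusted p = 0.0276, called in 3 of 10 fits). Rps6ka1, a kinase downstream of ERK, was higher by 1.22 (adjusted p = 0.0201, lost without WT replicate 1 or KO replicate 2 or 3) and was also called in vehicle (0.99, adjusted p = 0.0467). Mir17hg, the host transcript of a microRNA cluster driven by MYC, was lower, at -1.25 (adjusted p = 0.042, called in 1 of 10 fits).

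Nbea and Ide differed by similar amounts with and without the toxin. Nbea encodes neurobeachin, a scaffold of membrane traffic. It had 96.7, 115, 109, 104 and 159 normalized counts in KO livers and 38.5, 38.4, 34.2, 33.1 and 30.3 in WT livers after CCl4 (1.70 ± 0.22, adjusted p = 0.00071), and the vehicle difference was 1.28 (adjusted p = 0.0102). Ide encodes the insulin-degrading enzyme, a protease that clears insulin in the liver. It had 4145, 4256, 4548, 2892 and 3691 in KO livers and 1646, 1976, 2136, 2063 and 1888 in WT livers (1.00 ± 0.16, adjusted p = 0.00391), and 0.78 in vehicle (adjusted p = 0.0191). For both genes the lowest KO liver after CCl4 was above the highest WT liver.

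Genes of hepatocyte metabolism and transport were among the calls on abundant transcripts; those named here, other than D2hgdh, were chosen after their values were seen. Slc38a3, a glutamine transporter of hepatocytes, had 65491 ± 11448 normalized counts in KO and 40926 ± 5176 in WT livers after CCl4 (SD, n = 5 each; difference 0.67, adjusted p = 0.03, called in 4 of 10 fits). Igfbp2, which encodes a circulating binding protein of insulin-like growth factors, averaged 15568 in KO and 9474 in WT livers (0.68, adjusted p = 0.0291, called in 5 of 10 fits). In vehicle both differences were near 0, at 0.13 and 0.06.

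Shmt1, the cytosolic enzyme that moves 1-carbon units from serine to folate, had 3445, 3549, 3737, 3360 and 3433 in KO livers and 6590, 5320, 5868, 5351 and 5944 in WT livers (-0.73 ± 0.13, adjusted p = 0.0114, called in all 10 fits). D2hgdh, which oxidises D-2-hydroxyglutarate in mitochondria, was higher by 0.88 (adjusted p = 0.0168, lost without WT replicate 3).

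Genes of the matrix gave few calls. Hyal1, a lysosomal hyaluronidase, had 407, 459, 384, 275 and 619 normalized counts in KO livers and 944, 1079, 824, 1223 and 948 in WT livers after CCl4 (-1.26 ± 0.18, adjusted p = 0.00188). In vehicle Hyal1 was at 539 to 1060 in KO and 947 to 1175 in WT (-0.62, adjusted p = 0.112). The annotation of Naa80, an acetyltransferase of actin, overlaps Hyal1 on chromosome 9 and Naa80 differed by -1.03 (adjusted p = 0.00523), so reads of the shared stretch bear on both.

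Col4a5, a basement membrane collagen chain, was higher by 1.37 (adjusted p = 0.0201, lost without KO replicate 3), with 116 to 151 in KO and 36.5 to 63.3 in WT livers. Col6a5, chosen after its values were seen, had 13.2 to 76.3 in KO and 0 to 4.48 in WT livers (fitted difference 3.83, adjusted p = 0.00561). Of 42 collagens and matrix genes 0 were called (neither of these is on that list), with a median of 0.145. Of 21 ADAMTS proteases and their matrix substrates 0 were called, with a median of 0.192, Adamts2, a procollagen protease, at 0.50 (adjusted p = 0.331) and Adamtsl1, an ADAMTS-like matrix protein without a protease, at 0.81 (adjusted p = 0.345). The TGF-beta and BMP response list had 0 of 28 called and a median of -0.03.

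Several genes for RNA-binding and nuclear proteins were lower in KO livers after CCl4, most of them in vehicle too. They were chosen after their values were seen and are given one by one, without a claim on RNA processing genes in general. Pnisr, a splicing-associated protein, had 643 to 740 normalized counts in KO livers and 1065 to 1274 in WT livers after CCl4 (-0.76 ± 0.11, adjusted p = 0.00188), and -0.66 in vehicle (adjusted p = 0.00789). Leng8 was at -0.76 after CCl4 and -1.0 in vehicle, both called.

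The RNA helicase gene Ddx17 was at -0.66 and -0.64, the splicing regulator Tardbp (TDP-43) at -0.58 and -0.61, Ttc14 at -0.57 and -0.69, the nuclear poly(A)-binding protein gene Pabpn1 at -0.89 and -0.86, and the O-GlcNAc transferase gene Ogt at -0.68 and -0.67, after CCl4 and in vehicle, all called in both. Zfc3h1, part of a complex that sends RNA to the nuclear exosome, was at -0.81 (adjusted p = 0.0114) after CCl4, and -0.37 in vehicle (adjusted p = 0.268). Pnisr, Leng8 and Zfc3h1 were called in all 10 fits, Ddx17 in 6, Ttc14 in 4, Tardbp in 3, and Ogt and Pabpn1 in 2.

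Il1b was called between the genotypes in vehicle and not after CCl4, and the difference between the treatments was itself called. Il1b encodes interleukin 1 beta, an early inflammatory cytokine of macrophages and neutrophils. After CCl4 it had 160, 241, 227, 81.7 and 83.0 normalized counts in KO livers and 395, 274, 217, 309 and 226 in WT livers, a difference of -0.95 that was not called (adjusted p = 0.2). In vehicle it had 164, 484, 419, 319 and 425 in KO livers and 69.0, 92.8, 64.9, 114 and 120 in WT livers (1.91, adjusted p = 0.00789). The KO vehicle livers were thus the high group and did not overlap WT vehicle livers.

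CCl4 livers had less Il1b than vehicle livers in KO (-1.24, adjusted p = 0.00309) and more in WT (1.62, adjusted p = 0.000235). The interaction, -2.87 (adjusted p = 0.0196), was lost in 8 of the 20 fits that left out a liver (WT replicate 1, 2, 4 or 5 or KO replicate 5 after CCl4, KO replicate 2, 3 or 5 in vehicle), with an adjusted p up to 0.0661.

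Neutrophil markers had values of the same pattern. Of 9 tested, 0 were called after CCl4 (0.603% of all genes were). In vehicle 1 was called, higher in KO (smallest adjusted p = 0.0141 in limma), against 1% of all genes. The median was -0.565 after CCl4 and 0.88 in vehicle. An unadjusted interaction p under 0.05 was found for 8 of 9, against 7.26% of all genes, and 0 had a called interaction. Their summed level was 428 to 891 in KO and 710 to 1723 in WT livers after CCl4, and 837 to 1460 in KO and 395 to 1306 in WT vehicle livers. S100a8, a calprotectin subunit gene of neutrophils, had 95.4, 61.4, 151, 111 and 111 in KO and 364, 130, 145, 276 and 238 in WT livers after CCl4 (-1.07, adjusted p = 0.137). In bulk tissue fewer cells of a type and less RNA per cell cannot be told apart.

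A list of dendritic cell markers and MHC class II genes, which present antigen on dendritic cells, B cells and macrophages, had 0 of 14 members called after CCl4 and 4 in vehicle. Of all genes, 0.603% were called after CCl4 and 1% in vehicle. The list's median was 0.802 after CCl4 and 0.767 in vehicle. Positive differences were found for 11 and 12 of 14, against 48.5% and 50.8% of all genes. In both treatments 7 of 14 had an unadjusted p under 0.05 in limma, against 12.8% and 12.9% of all genes. An unadjusted interaction p under 0.05 was found for 0 of 14 (7.26% of all genes). The 4 called in vehicle were all higher in KO: H2-Ab1 at 1.67 (adjusted p = 0.016), H2-Eb1 at 1.61 (adjusted p = 0.0368), H2-Aa at 1.52 (adjusted p = 0.033) and the invariant chain gene Cd74 at 1.25 (adjusted p = 0.0467). H2-Ab1 had 2065, 917, 1489, 1470 and 1143 in KO livers after CCl4 and 875, 1530, 451, 630 and 621 in WT livers (0.86, adjusted p = 0.256), with WT replicate 2 above 4 of the 5 KO livers. The Kupffer cell list, macrophages resident in the liver, had 0 of 15 called and a median of 0.454, with its marker Timd4 at 0.71 (adjusted p = 0.162).

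**Figure D5:**
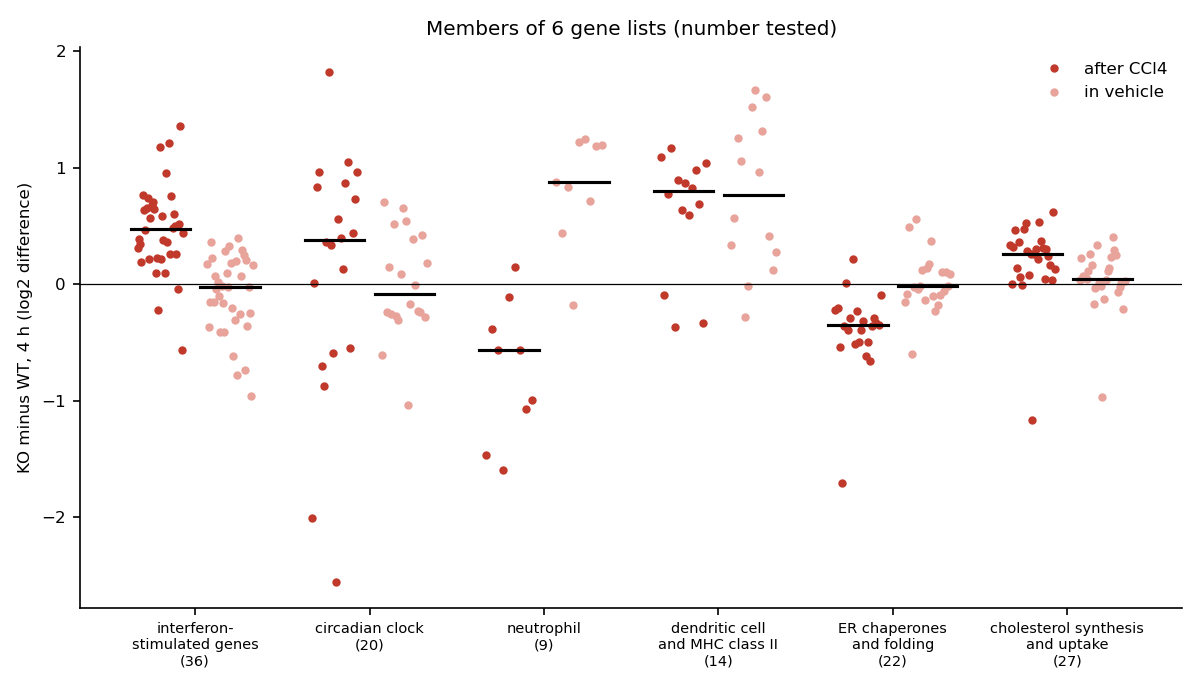
Genotype difference (KO minus WT, log2, y axis) of each member of 6 gene lists (x axis) at 4 h after CCl4 and in vehicle; points are genes and black lines medians. Medians after CCl4 were 0.471 for interferon-stimulated genes and -0.565 for neutrophil markers, against -0.022 and 0.88 in vehicle.

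In the lists that define the response to the toxin, no gene was called between the genotypes. Heat shock chaperones had 0 of 22 called between KO and WT after CCl4, with a median response to CCl4 of 1.806 in KO and 1.982 in WT livers. Integrated stress response genes had 0 of 26 called, with median responses of 3.274 in KO and 2.859 in WT livers. For p53 targets 0 of 22 were called and the median genotype difference was -0.016. A missed threshold does not show that the genotypes were equal.

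Chaperones and folding enzymes of the endoplasmic reticulum had 0 of 22 called. After CCl4 20 of 22 were at negative values and 2 at positive values, whereas 48.5% of all genes were positive. An unadjusted p under 0.05 in limma was found for 6 of 22, against 12.8% of all genes. The median was -0.353 after CCl4 and -0.016 in vehicle. Pdia6, a disulfide isomerase gene, was at -0.50 (adjusted p = 0.251), Hsp90b1, the endoplasmic HSP90, at -0.51 (adjusted p = 0.27), and Hspa5, the main chaperone BiP, at -0.23 (adjusted p = 0.732). These genes were higher after CCl4 than in vehicle in both genotypes, with a median response of 0.739 in KO and 1.011 in WT livers.

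No P450 gene was called between the genotypes. Cyp2e1, whose product activates CCl4, had 128538 ± 28266 normalized counts in KO and 104134 ± 17575 in WT livers after CCl4 (SD, n = 5 each; 0.29, adjusted p = 0.554), and was lower after CCl4 than in vehicle in both genotypes, by -1.04 in KO and -1.11 in WT (log2). Of 52 drug and steroid P450s and their regulators 0 were called, 35 were at positive values (48.5% of all genes were) and the median was 0.262. However, 21 of the 52 had an unadjusted p under 0.05 in limma, against 12.8% of all genes. KO and WT livers did not overlap for 7 members higher and 4 lower in KO, against 3.37% of all genes in either direction. The aryl hydrocarbon receptor gene Ahr, which induces Cyp1a2 and other P450s, had the smallest p of the list (0.63, adjusted p = 0.0505), followed by Cyp4a31 at 0.98 and Cyp2j6 at 0.33 (adjusted p = 0.0728 for each).

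Pericentral hepatocyte genes, which mark the zone that CCl4 injures, had 0 of 27 called and a median of 0.262. Positive values were found for 18 of the 27, against 48.5% of all genes. Axin2, a feedback target of Wnt signalling, went against the sign of the median, at -1.06 (adjusted p = 0.0755). An unadjusted p under 0.05 in limma was found for 10 of these 27, against 12.8% of all genes. Genes of cholesterol synthesis and uptake had 0 of 27 called, with 25 at positive values (48.5% of all genes were). Their median was 0.262 (0.047 in vehicle, which turned to -0.002 after quantile normalization). Among them Dhcr7, the last enzyme of synthesis, was at 0.47 (adjusted p = 0.108), and Insig2, which holds the SREBP pathway back, at -1.17 (adjusted p = 0.0837).

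Called genes lay near each other on some chromosomes. Of the 85, 27 had another called gene within 2 Mb (31.8%), against 16.2% of the genes not called, and in vehicle the shares were 36.7% and 33.6%. On chromosome 9, between 106432981 and 107669530 (GRCm38), 6 of 31 tested genes were called (19.4%). On the whole chromosome 8 of 779 were called (1.03%), against 0.603% of all genes. The 6 were Acy1, Abhd14a, Hyal1, Naa80, Ifrd2 and Slc38a3, with Acy1 and Slc38a3 higher in KO and the others lower. The annotations of Hyal1 and Naa80 overlap, so these may not be separate calls. This stretch was chosen after the values were seen, and its ends are those of the called genes Acy1 and Slc38a3, which raises its share. Col6a5 (105856078 to 105960643), also called, lies just before it. Mcm6 (128331590 to 128359664) and Ctse (131638306 to 131675505) are both on chromosome 1, 3.28 Mb apart and so not within 2 Mb of each other.

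At later times the genotype differences of 4 h were seldom called. Of the 85 genes, the sign was the same in CCl4 livers of 12 h for 58.8% (54.1% of all genes), of 24 h for 67.1% (55.0%) and of 7 days for 49.4% (53.7%). In vehicle livers the shares were 51.8% at 12 h (46.0%), 44.7% at 24 h (42.7%) and 58.8% at 7 days (49.1%). The sign was the same in all 7 other conditions for 6 of 85. Few genes were called between the genotypes at those times: 2 after CCl4 (0.0142%) and 1 in vehicle (0.00708%) at 12 h, 0 and 0 at 24 h (0%, with 459 and 995 genes at an unadjusted p under 0.05 in limma), and 1 (0.00704%) and 5 (0.0352%) at 7 days. These counts and shares rest on groups that hold the 5 KO libraries closer to the other treatment, which was clear only at 12 h. At 12 h CCl4 changed 0 genes in KO livers against vehicle with them (2867 at an unadjusted p under 0.05 in limma) and 6425 without them (45.6%). Without the 5 libraries the genotype calls were 1 after CCl4 (0.00709%) and 3 in vehicle (0.0213%) at 12 h, 0 and 0 at 24 h (216 and 1007 at an unadjusted p under 0.05), and 1 (0.00707%) and 0 (678 at an unadjusted p under 0.05) at 7 days. The share of called genes with the same sign was then 55.3% after CCl4 and 60% in vehicle at 12 h (52.3% and 47.5% of all genes), 74.1% and 44.7% at 24 h (53.6% and 42.7%), and, of 83 of the 85 genes, 48.2% and 49.4% at 7 days (53.7% and 49%).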

How the data were processed

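RNA of 80 livers was sequenced from stranded mRNA libraries made from 500 ng of total RNA, per the labels' protocols. The submitters' processing notes name STAR, HTSeq, DESeq2 and GRCm38, without versions, and the annotation is not given in the sources used here. The deposited values are a normalized signal, read counts per gene that the authors scaled by a size factor per library, for 14560 genes. Each library's values are whole multiples of 1 step (tolerance 0.01), from which depth was described (19.09 to 55.79 M reads at 4 h). A value of 0 allows up to 3 reads.

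The values were not accepted as counts, so a count test planned as an alternative was not run. The 14094 genes that reached 10 normalized counts in 5 or more of the 20 libraries of 4 h were tested. limma 3.58.1 in R 4.3.3 was fitted to log2(value + 1) with 4 group means and a variance trend, with two-sided p values. A pseudocount understates the change of low genes. Each other time was fitted in the same way. Replicates are numbered mice, and the p values test group differences against the spread between mice within groups. Genes of GENCODE M21 were matched by identifier.

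Members and lists were chosen with earlier results of these data known. Genes named were the 15 largest called rises and falls with a mean of at least 100 and no overlap, and the 5 largest each way for other contrasts. Up to 4 called members of each list were named, or up to 3 uncalled members where none was called. Other genes were chosen after their values were seen, as is said for most of them. Not every gene that met the rule is described. In data simulated for the CCl4 comparison with 14106 genes, 62.7%, 89.6% and 98.5% of genes changed 1.5-fold, 2-fold and 4-fold were recovered, with 11 unchanged genes among 178 calls. Changes were placed only in genes with a mean of at least 100 in WT CCl4 livers. Each liver was drawn independently, with no deviation shared by many genes of a liver. These rates therefore do not cover lower genes or the dependence on single livers seen in the real data.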

Additional observations from a re-analysis of the deposited data

Results flagged for a closer look

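Of 112 groups of 5 livers examined for a value far from the others of its group, 13 had one; chance gives about 1 in 20. In KO livers after CCl4 these were Ctse in replicate 3 (13.6, next 6.45), Irf7 in replicate 3 (4572.6, next 2532.3), Prelid2 in replicate 2 (62.9, next 33.5) and Dbp in replicate 4 (1309.3, next 477). In WT livers after CCl4 it was Camk2b in replicate 3 (537, next 351). In KO vehicle livers they were Prelid2 in replicate 1 (lowest, 12.0, next 50.6), S100a8 in replicate 2 (lowest, 173, next 261) and Susd4 in replicate 1 (1140.9, next 302).

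In WT vehicle livers they were Mcm6 in replicate 5 (154, next 64.5), Gm16867 in replicate 5 (12.0, the others at 0), Arntl in replicate 1 (79.1, next 41.8), Hyal1 in replicate 3 (lowest, 947, next 1114.3) and S100a8 in replicate 4 (260, next 91.6).

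Prelid2, which encodes a mitochondrial lipid transfer protein relative, was lower in KO livers after CCl4 (-2.77, adjusted p = 0.0127), with 23.9 to 62.9 in KO and 67.8 to 565 in WT livers. Susd4, a complement inhibitor gene, was higher (2.47, adjusted p = 0.0487, called in 1 of 10 fits without a liver), with 65.3 to 449 in KO and 14.6 to 42.7 in WT livers.

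The response to CCl4 differed between the genotypes by the interaction test for Mcm6 (2.67) and Il1b (-2.87), each with an adjusted p of 0.0196 in limma.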

How the results depend on the processing

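The count of 85 genes after CCl4 was within 1.5 times of itself with a pseudocount of 8, without a filter, with a mean of at least 100, after quantile normalization, in a fit to all 80 libraries (57, of which 36 shared), with replicate number as a block (63) and without KO replicates 1 to 3 (71, of which 27 shared). It was 132 when the spread came from the 10 CCl4 livers alone, 23 without KO replicates 4 and 5 and 207 with library weights, an alternative chosen after seeing the data. It was 33 to 110 when each liver was left out in turn. The vehicle count of 141 was 76 with a mean of at least 100, 24 in the fit to all 80 libraries and 25 to 145 without a liver. The interaction count of 2 was 1 after quantile normalization, 1 in the fit to all 80 libraries, 0 with the replicate block, 0 without KO replicates 4 and 5, 6 without KO replicates 1 to 3 and 0 to 4 without a liver. The cause was not tested. The Adamts12 difference of -1.44 stayed negative, from -1.72 to -1.18 without a liver, and has no value with a mean of at least 100.

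No single-gene difference recomputed under these alternatives changed sign. Of the 85 genes, 8 were called in every alternative that tested them, among them Mcm6, Gm15772, Nbea, Ctse, Hyal1, Naa80 and Gm16867. Interferon-stimulated genes had 1 to 4 members called and clock genes 0 to 5. The list medians were recomputed after quantile normalization only: the CCl4 median kept its sign in 60 of 62 lists, all but the MMP and stellate cell lists, and the vehicle median in 55 of 62, the other 7 being at most 0.055 in size, among them cholesterol synthesis (0.047 and then -0.002) and hepatocyte markers (0.036 and then -0.055). Same-numbered livers did not all deviate together (correlations -0.257 to 0.012 after CCl4 and -0.153 to 0.186 in vehicle), so the block was used only as an alternative, with 98 calls in vehicle. Without the 5 KO libraries of later times that stood closer to the other treatment, chosen after seeing the data, the count at 12 h was 1 after CCl4 (2 with them) and 3 in vehicle (1 with them), and in vehicle at 7 days 0 (5 with them). The planned edgeR test on recovered reads was not run.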
